A study of Mus musculus with 6 samples.

Results

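Aminoacyl-tRNA synthetases are the enzymes that attach each amino acid to its transfer RNAs, the step that supplies ribosomes with charged tRNA. Mammalian cells encode largely separate sets for the cytosol and for mitochondria, and the genes of both sets lie in the nucleus. Members were all genes on the array whose single gene symbol had the form of a synthetase name, and a gene with several rows would have been represented by its row with the highest mean. The rule found 31 genes among 14860 with a row of 1 symbol, and 0 of them had more than 1 row. Symbols ending in 2 mark the mitochondrial enzymes, of which there were 15, and the other 16 are cytosolic. The cytosolic genes Gars and Kars are known to encode the glycyl and lysyl enzymes of both compartments. Of the wider family, Dars, Eprs, Sars and Cars2 had no such row, and the row of Aars also carried the name of another gene, so these were not analysed here.

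The arrays compared 2 regions of the tibialis anterior, a fast leg muscle, in ICR mice, an outbred stock, aged 16 weeks. The first region was tissue at neuromuscular junctions (NMJs), found by staining for acetylcholinesterase and cut out by laser capture, and the other was an equal area of the same fibres away from the junctions (non-NMJ). All animals were untreated as far as the labels say, and each region had 3 arrays of amplified RNA. The labels give neither the number of animals nor the animal behind each array, so a p-value here reflects how far these arrays differ, and it is too small where several arrays of a region came from 1 animal. In bulk samples such as these, fewer cells of a type and less RNA per cell cannot be told apart.

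Differences are NMJ minus non-NMJ on the log2 scale, tested with limma over all 23332 rows and called at a Benjamini-Hochberg adjusted p under 0.05. Over all rows, 14.4% were called higher and 8.63% lower in NMJ regions, with a median difference of -0.01. Among the 11666 rows with a mean above that of the median row, a range that held 29 of the 31 synthetases, 23.7% were called higher and 14.4% lower. Pearson correlations over all rows were 0.988 to 0.990 among NMJ arrays, 0.980 to 0.983 among non-NMJ arrays and 0.953 to 0.961 between regions. The number of arrays limits the precision.

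Cytosolic synthetases were higher at the junction and mitochondrial ones mostly did not pass the test. Of the 16 cytosolic genes, 10 rose and 0 fell, with a median difference of 0.55. Of the 15 mitochondrial genes, 1 rose and 1 fell, with a median of 0.03. Over the whole family that made 11 higher and 1 lower, or 38.7% called against 23% of all rows. Among rows with a mean above that of the median row, which held 29 of the 31 genes, 23.7% were called higher and 14.4% lower. The total share called in the family was thus close to that of rows of its brightness, but its calls were mostly higher. The higher cytosolic genes had folds between 1.39 and 2.02. All 3 NMJ arrays stood above all 3 non-NMJ arrays in 12 cytosolic and 3 mitochondrial genes, or 15 of 31, against 22.8% of all rows. They stood below them in 1 cytosolic and 3 mitochondrial genes, against 18.2% of all rows, so that the regions were apart in 19 genes, against 41% of all rows. The shares of rows with regions apart were not taken for the brighter rows alone.

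**Figure D1:**
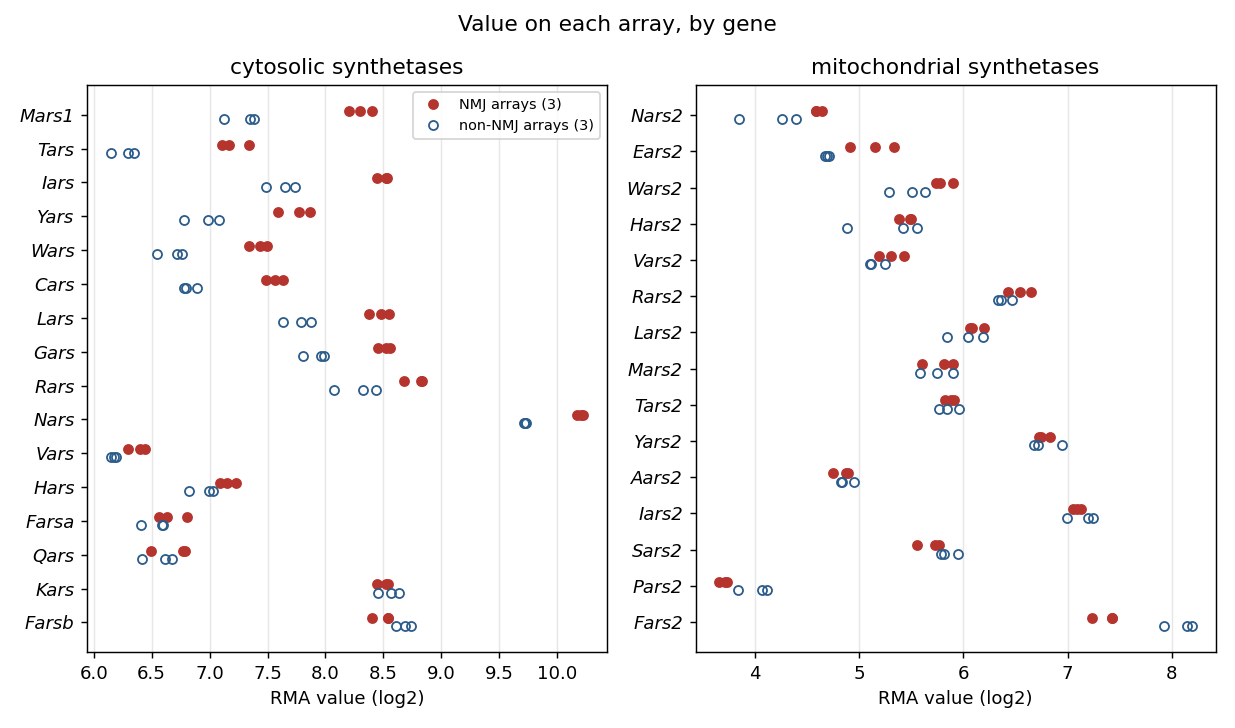
RMA value on each array (x axis, log2) for the 16 cytosolic and 15 mitochondrial synthetase genes, ordered by their difference; filled points are the 3 NMJ arrays and open points the 3 non-NMJ arrays. Filled points lie to the right of all open points for the upper 12 cytosolic genes, and the points of most mitochondrial genes overlap.

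The largest cytosolic difference was in Mars1, which charges the methionine tRNA that starts and extends every protein. Its values were 8.30, 8.40 and 8.21 on the NMJ arrays, against 7.38, 7.35 and 7.12 on the non-NMJ arrays. All NMJ arrays stood above all non-NMJ arrays, and the difference of 1.02 ± 0.11 (SE, n = 3 per region) made a 2.02-fold higher value (limma adjusted p = 0.00155). Tars, the threonyl enzyme, had 7.17, 7.34 and 7.10 in NMJ regions, against 6.35, 6.30 and 6.15 in non-NMJ regions. That was 1.92-fold higher, with no overlap (0.94 ± 0.10, SE; limma adjusted p = 0.00177). Iars, which charges isoleucine, had 8.53, 8.53 and 8.45 on the NMJ arrays, against 7.65, 7.74 and 7.49 on the non-NMJ arrays. The NMJ values of Iars lay close together and well above the others, a 1.84-fold difference (0.88 ± 0.10, SE; limma adjusted p = 0.00173).

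Enzymes with smaller differences followed, for tyrosine, tryptophan, cysteine and leucine, and in each of them the regions did not overlap. Yars, the tyrosyl enzyme, had 7.87, 7.77 and 7.59 in NMJ regions, against 6.99, 7.09 and 6.78 in non-NMJ regions, and was 1.74-fold higher (0.80 ± 0.12, SE; limma adjusted p = 0.00608). Wars, the tryptophanyl enzyme, which interferons are known to induce, had 7.44, 7.50 and 7.34, against 6.76, 6.72 and 6.55 in non-NMJ regions. It was 1.68-fold higher at the junction (0.75 ± 0.10, SE; limma adjusted p = 0.00322). The lowest NMJ array of each gene stood well above its highest non-NMJ array. Cars, for cysteine, had 7.56, 7.64 and 7.49 on NMJ arrays, against 6.78, 6.89 and 6.80 on non-NMJ arrays (1.67-fold; 0.74 ± 0.09, SE; limma adjusted p = 0.0021). Lars, the leucyl enzyme, is known also as a leucine sensor for the growth kinase mTORC1. Its values were 8.48, 8.55 and 8.38 in NMJ regions, against 7.79, 7.88 and 7.63 in non-NMJ regions, a 1.63-fold difference (0.70 ± 0.10, SE; limma adjusted p = 0.00482).

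A further 3 cytosolic genes rose by less. Gars, the glycyl enzyme that serves both compartments and whose human mutations cause a motor neuropathy, had 8.52, 8.55 and 8.46 on NMJ arrays, against 7.96, 7.98 and 7.80 on non-NMJ arrays. It was 1.51-fold higher (0.60 ± 0.09, SE; limma adjusted p = 0.00551). Rars, for arginine, had 8.82, 8.84 and 8.68 in NMJ regions, against 8.44, 8.33 and 8.08 in non-NMJ regions. The regions did not overlap, and the difference was 0.50 ± 0.12 (SE; limma adjusted p = 0.0299). Rars was the least firm of the cytosolic calls: its adjusted p was 0.105, 0.101 and 0.0563 without NMJ replicate 1, 2 or 3, and 0.0653 and 0.0509 without non-NMJ replicate 2 or 3, and 0.0651 after median centring. Nars, the asparaginyl enzyme, had the tightest values, at 10.23, 10.20 and 10.17 on NMJ arrays, against 9.71, 9.72 and 9.73 on non-NMJ arrays. Its difference of 0.48 ± 0.07 (SE) was the smallest of the 10 (limma adjusted p = 0.00641). The 9 genes other than Rars were called in all 14 alternative fits.

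The 6 other cytosolic genes did not pass the test. The largest of their differences was in Vars, the valyl enzyme, with 6.40, 6.45 and 6.30 on NMJ arrays, against 6.20, 6.15 and 6.17 on non-NMJ arrays. The regions did not overlap there, but the difference of 0.21 ± 0.08 (SE) had a limma adjusted p of 0.127. Kars, the lysyl enzyme of both compartments, had 8.53, 8.54 and 8.45 in NMJ regions, against 8.64, 8.57 and 8.45 in non-NMJ regions. These values overlapped, with a difference of -0.05 (95% confidence interval -0.26 to 0.17). Hars, the histidyl enzyme, had a difference of 0.21 (-0.03 to 0.44), and Qars, the glutaminyl enzyme, had one of 0.12 (-0.18 to 0.41). The phenylalanyl enzyme is built from alpha and beta subunits, encoded by Farsa and Farsb. Farsa had a difference of 0.14 (-0.12 to 0.39), and Farsb had one of -0.19 (-0.40 to 0.03), with all 3 NMJ arrays below all 3 non-NMJ arrays. Farsb passed the test as lower after quantile normalization (adjusted p = 0.0435) and after median centring (0.0313).

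**Figure D2:**
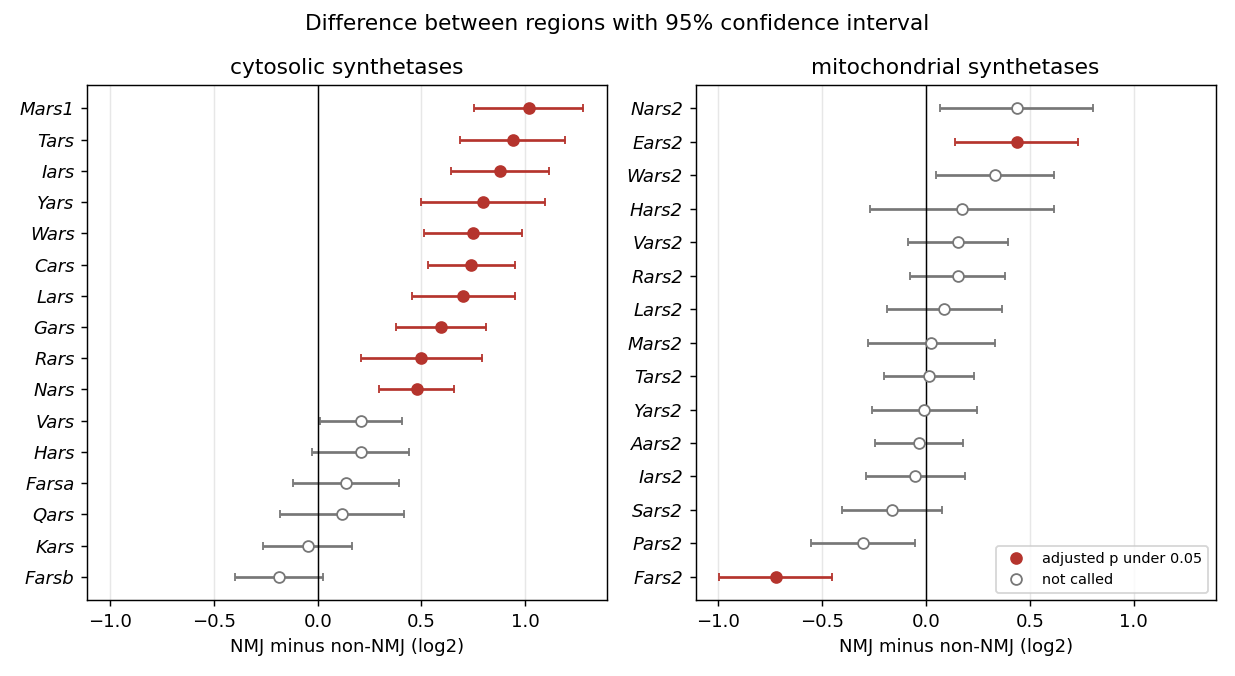
Difference between NMJ and non-NMJ regions (x axis, log2) for each synthetase gene with its 95% confidence interval from limma; filled points passed an adjusted p under 0.05 and open points did not. The 10 called cytosolic genes lie between 0.48 and 1.02, and most mitochondrial intervals span 0.

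Among the mitochondrial enzymes the one clear difference was a fall. Fars2, the mitochondrial phenylalanyl enzyme, had 7.42, 7.42 and 7.24 on the NMJ arrays, against 8.19, 8.15 and 7.92 on the non-NMJ arrays. All NMJ arrays lay below all non-NMJ arrays, and the gene fell by 0.72 ± 0.11 (SE) on the log2 scale, to a value 1.65-fold lower (limma adjusted p = 0.00625). It was called lower in all 14 alternative fits. Ears2, the glutamyl enzyme of mitochondria, had 4.91, 5.15 and 5.33 in NMJ regions, against 4.68, 4.72 and 4.69 in non-NMJ regions. The NMJ arrays of Ears2 were higher but spread widely, and the difference of 0.44 ± 0.12 (SE) was only just called (limma adjusted p = 0.0492). That call was lost without NMJ replicate 2 (0.138) or 3 (0.113) and without non-NMJ replicate 1 (0.114), 2 (0.102) or 3 (0.104), and also after median centring (0.129) or quantile normalization (0.213) and with array weights (0.109).

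The 13 other mitochondrial genes were not called, and their differences ran from -0.31 to 0.44. Nars2, the asparaginyl enzyme, had 4.59, 4.65 and 4.59 on NMJ arrays, against 4.39, 4.26 and 3.85 on non-NMJ arrays (difference 0.44; limma adjusted p = 0.0932). Pars2, the prolyl enzyme, had 3.73, 3.72 and 3.66, against 4.12, 4.07 and 3.83 on non-NMJ arrays (difference -0.31; limma adjusted p = 0.0865). Neither gene's regions overlapped, and Pars2 lay below the median of every array, where the level over background is unknown. Pars2 passed as lower after quantile normalization (0.0413), after median centring (0.0219), with array weights (0.0485), among rows with 1 symbol (0.0459) and without non-NMJ replicate 3 (0.0332). Wars2, for tryptophan, had a difference of 0.33 (95% confidence interval 0.05 to 0.61), and the histidyl enzyme Hars2 had one of 0.17 (-0.27 to 0.62). Vars2, Rars2 and Lars2, for valine, arginine and leucine, had differences of 0.15, 0.15 and 0.09. Mars2, Tars2 and Yars2, for methionine, threonine and tyrosine, stood at 0.03, 0.01 and -0.01. The alanyl enzyme Aars2, the isoleucyl enzyme Iars2 and the seryl enzyme Sars2 had differences of -0.03, -0.05 and -0.16. Apart from Nars2, Pars2 and Wars2, the 95% confidence intervals of the uncalled mitochondrial genes all included 0. In single alternative fits Sars2 passed as lower (adjusted p = 0.0118 after quantile normalization), and Nars2 (0.0473 among rows with 1 symbol) and Wars2 (0.0454 without the dimmest 50% of rows) passed as higher.

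Because several amino acids have an enzyme in each compartment, the 2 could be set against each other within each array, which is independent of how arrays are scaled by a constant. There were 12 such pairs, with the phenylalanyl subunits each set against Fars2. In all 12 the ratio of cytosolic to mitochondrial enzyme was higher in NMJ regions, by 0.03 to 0.99 on the log2 scale with a median of 0.58, and in 9 of them the NMJ and non-NMJ ratios did not overlap. Both phenylalanyl pairs, which share the Fars2 row, are among the 9. Regions were apart in 41% of all single rows, and no share was taken for ratios of other genes. The shift was 0.99 for Mars1 over Mars2, 0.93 for Iars over Iars2, 0.93 for Tars over Tars2 and 0.80 for Yars over Yars2. It was 0.61 for Lars over Lars2, 0.42 for Wars over Wars2 and 0.35 for Rars over Rars2. For Farsa over Fars2 the shift of 0.86 came mostly from the fall of Fars2, and for Farsb over Fars2 it was 0.54 although Farsb itself had a difference below 0. The shift was 0.05 for valine, 0.04 for asparagine and 0.03 for histidine, where the ratios overlapped. With 3 arrays against 3 an exact two-sided permutation test cannot go below 0.10, the value reached by those 9 pairs (0.133 after Benjamini-Hochberg adjustment over the 12). The cytosolic rows were brighter, with array medians of 7.90 to 8.09 in NMJ regions and 6.97 to 7.22 in non-NMJ regions. Those of the mitochondrial rows were 5.73 to 5.77 in NMJ regions and 5.63 to 5.84 in non-NMJ regions. RMA compresses differences in dim rows, and the part of this in the contrast was not tested.

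**Figure D3:**
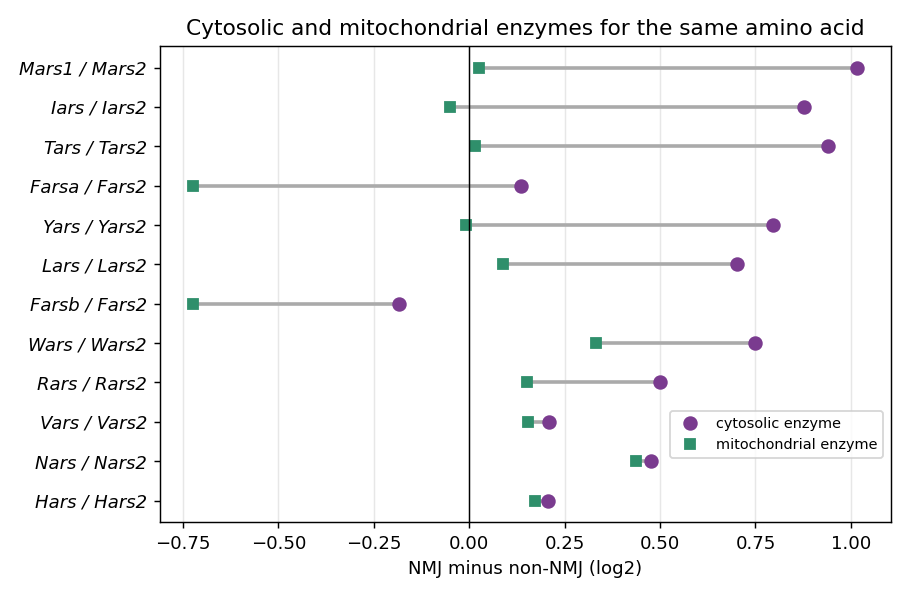
Differences between NMJ and non-NMJ regions (x axis, log2) for the 12 pairs of a cytosolic enzyme (circles) and a mitochondrial enzyme (squares) for the same amino acid, ordered by the gap between them. The circle lies to the right of the square in all 12 pairs, with gaps from 0.03 to 0.99.

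The cytosolic genes were then read by what is known of them. In mammals 8 cytosolic synthetases (Dars, Eprs, Iars, Kars, Lars, Mars1, Qars and Rars) sit in a multisynthetase complex held together by scaffold proteins. Of the 6 complex members measured, Iars, Lars, Mars1 and Rars rose and Kars and Qars were not called, with a median difference of 0.60. Of the 10 cytosolic genes outside the complex, 6 rose, with a median of 0.54. By catalytic fold, 7 of 9 class I enzymes and 3 of 7 class II enzymes of the cytosol rose. All the counts in this paragraph stand against 14.4% of all rows called higher and 23.7% of the brighter rows. No test of a difference between these groups was made.

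Many cytosolic synthetases are known targets of Atf4, the transcription factor that the integrated stress response and amino acid shortage raise. Of the listed targets, 8 were measured (Cars, Gars, Iars, Mars1, Nars, Tars, Wars and Yars), and all 8 rose, with a median difference of 0.77. Of all rows 14.4% were called higher, and of the brighter rows 23.7%. The other 8 cytosolic genes had a median of 0.17, and 2 of them, Lars and Rars, rose. The list was drawn up with earlier results of this series known, so its count is a description.

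Atf4 binds a composite element whose core reads TGATGCAA on one strand and TTGCATCA on the other. RefSeq promoters (build GRCm38.p6) running from 250 bases before to 50 bases after each start were at hand for 22 of the 31 synthetases and were searched on both strands. Cars, Hars, Hars2, Lars, Nars, Pars2, Rars, Vars and Wars had no entry. The core was found in the promoters of 3 synthetases, Iars, Tars and Yars, all of which rose, out of 6 higher members with a promoter, and in 0 of the other 16. Of all 32851 promoters of the table, 0.895% held it. Of the 6 higher members with a promoter only Ears2 is mitochondrial, and of the other 16 only Farsa, Farsb, Kars and Qars are cytosolic. The split between higher and other members was thus largely one between compartments. With the sixth base left free (TGATGNAA, which includes the core), Gars was added, and 3.97% of all promoters held that form. The windows below are given because these genes rose together; capitals mark the match, and each line gives the promoter strand 5′ to 3′.
Tars: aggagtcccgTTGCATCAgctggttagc
Iars: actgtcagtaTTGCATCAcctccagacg
Yars: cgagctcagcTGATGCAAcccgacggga
Gars: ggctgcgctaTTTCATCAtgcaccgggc
They lie at chr15:11399656-11399683 on the minus strand for Tars, and on the plus strand at chr13:49682127-49682154 for Iars, chr4:129189896-129189923 for Yars and chr6:55037961-55037988 for Gars. The match began 15 bases before the start in Tars and 30 bases before it in Gars, and at base 8 after it in Iars and base 4 in Yars. The 120 bases just upstream of the Tars start (chr15:11399659-11399778, minus strand) show the element within the proximal promoter.
Tars upstream: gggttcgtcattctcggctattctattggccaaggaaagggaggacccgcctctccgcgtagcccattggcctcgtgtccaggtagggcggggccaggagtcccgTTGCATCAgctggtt
A match of letters is a description of the sequence, not evidence of binding in these fibres. Mars1, the member with the largest difference, held no match in its window.

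Many, but not all, other known Atf4 targets rose in the same arrays. Of 20 measured, 12 rose, 0 fell and 8 were not called, with a median difference of 0.68. Of all rows 14.4% were called higher, and of the brighter rows 23.7%. The part of Atf4 in any of these differences was not tested. Asns, asparagine synthetase, which makes the amino acid that Nars charges, had 8.10, 8.04 and 7.98 on NMJ arrays, against 4.15, 4.10 and 3.79 on non-NMJ arrays. It was 16.3-fold higher, with no overlap (4.02 ± 0.12, SE; limma adjusted p = 1.77e-05). Slc7a5, a transporter of large neutral amino acids including leucine, isoleucine, tyrosine and tryptophan, had 8.87, 8.75 and 8.77, against 6.20, 5.55 and 5.86 on non-NMJ arrays, a 7.62-fold difference (limma adjusted p = 1.63e-04). Mthfd2, a mitochondrial folate enzyme, was 6.55-fold higher, and Aldh18a1, which starts proline synthesis, was 2.99-fold higher. These 4 differences, from 1.58 to 4.02 on the log2 scale, were larger than that of any synthetase. The non-NMJ values of Asns and Aldh18a1 lay below the non-NMJ array medians of 4.37 to 4.38, where the level over background is unknown. Not every target was called higher. Trib3, a pseudokinase, had a difference of 0.16, and Chac1, which degrades glutathione, had one of -0.40 (limma adjusted p = 0.0667). Every NMJ array of Chac1 (7.75, 7.50 and 7.57) lay below every non-NMJ array (8.05, 7.81 and 8.14). In some alternative fits 1 gene of the list was called lower. These were another variance model, median centring, rows with 1 symbol, and omission of non-NMJ replicate 2 or the dimmest 25% or 50% of rows. The count of higher genes was 10 to 12 in the alternative fits. Trib3 and Chac1 were chosen as examples after their values were seen.

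Among the partners of the synthetases the calls were all lower. Of 12 measured genes listed as scaffolds and partners, 0 rose, 6 fell and 6 were not called, with a median difference of -0.27, against 8.63% of all rows called lower and 14.4% of the brighter rows. In alternative fits 1 gene of the list was called higher among rows with 1 symbol, without NMJ replicate 3 and without the dimmest 50% of rows. Of the uncalled genes, Dtd2, a gene of the tRNA deacylase family, had a difference of 0.39 (limma adjusted p = 0.0868), and Dtd1, of the same family, had one of 0.03; both were picked out after their values were seen. The scaffold proteins of the multisynthetase complex are Aimp1, Aimp2 and Eef1e1. Aimp2 had 9.88, 9.94 and 9.90 on NMJ arrays, against 10.40, 10.22 and 10.27 on non-NMJ arrays, and fell by 0.39 ± 0.09 (SE; limma adjusted p = 0.0219). Aimp1 had 8.83, 9.10 and 8.69, against 9.36, 9.39 and 9.26 on non-NMJ arrays, and fell by 0.46 (limma adjusted p = 0.0433). Eef1e1 had 7.50, 7.60 and 7.19, against 8.17, 8.16 and 7.78 on non-NMJ arrays, and fell by 0.61 (limma adjusted p = 0.0428). In these 3 scaffold genes every NMJ array lay below every non-NMJ array. Aimp2 lost its call without NMJ replicate 1, 2 or 3 or non-NMJ replicate 1 (adjusted p = 0.0607 to 0.0915). Aimp2 also lost it with the replicate block (0.0555). Aimp1 lost its call when any array but NMJ replicate 2 was left out (0.0699 to 0.138). Eef1e1 lost its call when any array but non-NMJ replicate 3 was left out (0.0653 to 0.114). Aimp1 and Eef1e1 lay outside the naming rule and were added for their role after their values were seen.

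Tarsl2, a second cytosolic threonyl enzyme whose symbol the family rule does not take, went against Tars. It had 7.33, 7.61 and 7.39 on NMJ arrays, against 8.29, 8.43 and 8.12 on non-NMJ arrays, and fell by 0.84 ± 0.12 (SE; limma adjusted p = 0.00503). All its NMJ arrays lay below all its non-NMJ arrays, and it was called lower in all 14 alternative fits. Ppa2, the mitochondrial pyrophosphatase that removes a product of the charging reaction, fell by 0.67 (limma adjusted p = 0.00995), and Pstk, a kinase needed to make selenocysteine tRNA, fell by 0.63 (0.0411). Pstk did not pass without any array but non-NMJ replicate 3 (0.0745 to 0.119). The count of 6 lower partners was 2 without NMJ replicate 1 or 3 or non-NMJ replicate 1, 3 without NMJ replicate 2 or non-NMJ replicate 2, and 5 without non-NMJ replicate 3. It was 5 with the replicate block and 7 after median centring.

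Other steps of tRNA supply showed no common direction. Of 4 genes that give mitochondria glutaminyl and formylmethionyl tRNA by other routes, 0 were called. Gatc and Qrsl1, subunits of the amidotransferase, had differences of -0.41 and -0.11, its subunit Gatb had one of 0.03, and the formyltransferase Mtfmt had one of 0.34. Of 21 tRNA processing and export genes, 2 rose and 2 fell, with a median of 0.09; the 19% called was near the 23% of all rows. Hsd17b10, part of mitochondrial RNase P and also a dehydrogenase, fell by 0.66 (limma adjusted p = 0.0026), and Rpp38, a nuclear RNase P subunit, fell by 1.80 (0.0099). Adat2, which edits adenosine in the tRNA anticodon, rose by 0.92 (0.0165), and Rtcb, the tRNA ligase of splicing, by 0.38 (0.037). Adat2 did not pass without NMJ replicate 1, 2 or 3 or non-NMJ replicate 3 (0.0507 to 0.0637), nor Rtcb without any array but non-NMJ replicate 2 (0.0848 to 0.12). Rtcb also lost its call after median centring (0.108) and quantile normalization (0.0507) and with the replicate block (0.0552). Gatc passed as lower after quantile normalization (0.0079) and median centring (0.0313), with the replicate block (0.0412), among rows with 1 symbol (0.0499) and without the dimmest 50% of rows (0.0461), and Qrsl1 after quantile normalization (0.0165). The 2 higher calls numbered 0 without NMJ replicate 1 or 2 or non-NMJ replicate 3, and 1 without NMJ replicate 3.

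**Figure D4:**
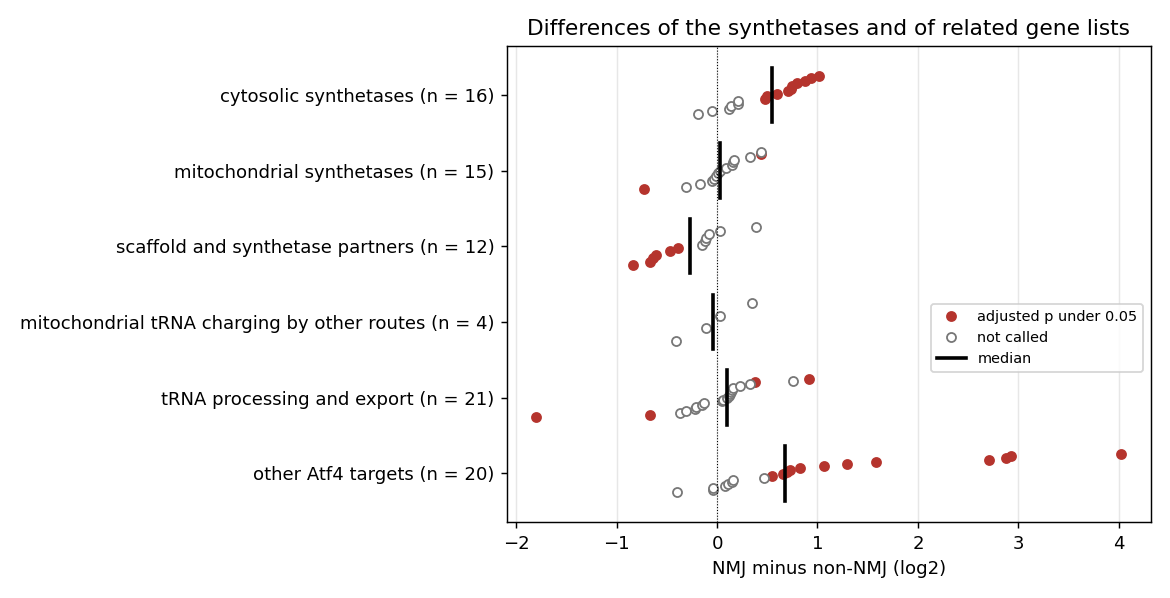
Differences between NMJ and non-NMJ regions (x axis, log2) of each gene in the cytosolic and mitochondrial synthetases and in the 4 related lists; filled points passed an adjusted p under 0.05, open points did not, and the black bar is the list's median. Medians are 0.55 for cytosolic synthetases, 0.03 for mitochondrial ones, -0.27 for scaffolds and partners and 0.68 for other Atf4 targets.

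Scaling bore on the signs of the smaller differences. Median centring moved the median difference of all rows to -0.15, and the share of all calls that were higher was 41.7% after it and 46.6% after quantile normalization, against 62.5% as deposited. The synthetases split into 9 higher and 3 lower after median centring and 10 higher and 4 lower after quantile normalization. The cytosolic median difference was 0.41 after centring and 0.51 after quantile normalization, and the mitochondrial one was -0.11 after centring and -0.23 after quantile normalization.

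Of the marker lists for other cells, those of Schwann cells and fibroblasts were mostly higher in NMJ regions, as the cytosolic synthetases were, and the others were mixed or lower. The counts stand against 14.4% of all rows called higher and 8.63% called lower. Of 12 Schwann cell markers 11 rose, and their summed linear values were 2212 to 2318 on NMJ arrays, against 364 to 405 on non-NMJ arrays. Of 13 fibroblast markers 9 rose, with sums of 10951 to 11408 on NMJ arrays, against 3323 to 3613 on non-NMJ arrays. Macrophage markers (3 of 10 higher, 1 lower) summed to 580 to 687, against 455 to 496 on non-NMJ arrays. Endothelial markers (6 of 12 lower) summed to 1195 to 1263, against 1468 to 1616 on non-NMJ arrays. Motor axon markers (1 of 12 higher, 1 lower) had a median difference of -0.20, and 10 of the 12 differences were below 0. Their sums of 713 to 755, against 289 to 315 on non-NMJ arrays, were carried by Map1b, a microtubule protein gene picked out after its values were seen, with mean log2 values of 9.27 in NMJ regions and 7.35 in non-NMJ regions. The NMJ means of all other motor axon markers ran from 2.17 to 4.33, below the NMJ array medians of 4.49 to 4.53. The level over background is unknown there, so the signs of their differences say little about the amount of axon. Fast myofibre genes (9 of 13 lower) summed to 66679 to 68027, against 85249 to 87098 on non-NMJ arrays, and the 9 genes known from synaptic nuclei all rose, summing to 21376 to 22134, against 750 to 873 on non-NMJ arrays. RMA gives no value of 0, so no marker could be listed as absent. The part of any of these cells in the synthetase differences was not tested.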

How the data were processed

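Per the labels' protocols, 10 ng of RNA from each laser-captured sample was amplified for an exon array. Per the submitters' processing notes, the authors used RMA in Affymetrix Expression Console and Transcriptome Analysis Console. The deposited values are gene-level and on a log2 scale, which was read from the values; for program versions, settings and the build, the sources used here give nothing. RMA compresses differences in dim and bright rows.

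Values were used as deposited and without a filter, so all 31 members were tested. Symbols came from the platform's gene table. limma 3.58.1 in R 4.3.3 (lmFit, eBayes, two-sided) compared 3 NMJ with 3 non-NMJ arrays, adjusted over 23332 rows. Errors of differences are standard errors of the fit. The step was tested on simulated data with known changes. The simulated arrays were independent, so arrays that share an animal were not covered.

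Members and lists were chosen with earlier results of these data known. Named with all values were the called members, the 2 nearest the threshold on each side, Gars, Kars and the largest uncalled differences; of each related list, up to 4 genes with the smallest p. Promoters were those of RefSeq. The alternatives were other scalings, row filters, variance models, array weights, a stricter threshold, the lowest-mean row, a replicate block and the omission of each array.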

Additional observations from a re-analysis of the deposited data

How the results depend on the processing

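The count of 12 called synthetases was 10 to 11 when single arrays were left out, and the count of higher cytosolic genes was 9 to 10; the median difference of the family was then 0.14 to 0.22, of cytosolic genes 0.51 to 0.60 and of mitochondrial genes -0.03 to 0.10. Median centring gave medians of 0.034 for the family, 0.41 for cytosolic and -0.11 for mitochondrial genes. Quantile normalization gave -0.050 for the family and -0.23 for mitochondrial genes. The 22 called genes of the related lists numbered 14 at an adjusted p under 0.01, and 16 to 19 with single arrays left out. Over all rows, 5364 calls numbered 3373 without NMJ replicate 1, 3535 without NMJ replicate 2 and 2776 at an adjusted p under 0.01. The labels do not say whether replicate numbers pair the arrays. Deviations of same-numbered arrays correlated at 0.0468, 0.0355 and 0.184, which does not settle it: NMJ replicates 1 and 3 correlated best with their own number, and NMJ replicate 2 correlated best with non-NMJ replicate 1 (0.111). With the replicate number as a block, 11 synthetases were called, with Ears2 lost (adjusted p = 0.0702), and 19 genes of the related lists. The lowest-mean row of a gene gave the same counts for the synthetases, which have 1 row each. Of 432 values for single synthetases under alternatives, 407 kept their side of the threshold, 15 calls were lost and 10 were gained, and none that was called changed direction. Signal over background was not given, which limits the dimmest genes.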
